A study of Phalaenopsis equestris with 4 samples.

Results

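The 10 gene models described here belong to the HSP20 family of small heat shock proteins of Phalaenopsis equestris, a butterfly orchid. They are the HSP20 entries of the authors' table of heat shock genes that name an assembled contig, apart from HSP20_PEQU_14367, HSP20_PEQU_14369, HSP20_PEQU_14371 and HSP20_PEQU_14374, a rule that reads names and contigs and no expression value. The table lists 29 gene models, 15 of them HSP20. HSP20_PEQU_02461 is listed with neither a contig nor a value and is not described. HSP20_PEQU_17855 and HSP20_PEQU_41347 share contig c135117_g1_i2, so the 10 models rest on 9 contigs of the 221878 in the assembly.

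Small heat shock proteins carry an alpha-crystallin domain and assemble into oligomers. They work without ATP: they bind proteins that are losing their fold, keep them from aggregating, and pass them on to ATP-driven chaperones such as HSP70, while HSP90 is known for handling signalling proteins at a late stage of folding. Flowering plants hold many HSP20 genes, with classes for the cytosol and for separate organelles. Heat is the best known inducer of these genes, and in several plants some of them are also expressed without heat during pollen and seed development. The tables do not say to which class each of these orchid genes belongs, so roles within the family are not given below.

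Total RNA was taken from root, stem, leaf and flower of plants 3 years old, and 1 library was sequenced per tissue, 4 in all. The labels name no treatment, cultivar or number of plants, and give no flower stage or part. Expression is in FPKM, by its usual definition the number of fragments scaled to transcript length and library size, so that levels of several genes can be set side by side within a library. Comparisons between libraries depend on their scaling, as described next. Without a replicate of any tissue there is no test and no p-value: each difference below is between single libraries, and whether it holds for the tissues cannot be checked. The labelled tissues could not be checked against marker genes either, since gene names accompany contigs only for heat shock and R genes.

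Leaf values need care. In each library all values above 0 were whole multiples of a fixed step, within 0.0006 FPKM. The step was 0.00724 FPKM in root, 0.00612 for stem, 0.0319 for leaf and 0.00708 for flower, so the leaf step was 4.41 times that of root. The worth of a read differed too. Low values clustered at ratios set by whole reads. The most frequent leaf and flower values at such ratios were taken as 1 read, which no read count checked. On that footing 1 read added 16.6 times as much FPKM in leaf as in root. It added 0.629 times as much in stem and 0.557 times as much in flower. The leaf figure includes the step: with steps divided out a leaf read was worth 3.77 times a root read. A low leaf value of a contig therefore rests on fewer reads than the same value of it elsewhere. Results that involve leaf are given as deposited and, where this turns a direction, also after dividing each library by its own step, a scaling chosen after the data were seen.

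The flower library held the highest level of most of these genes. In all 9 contigs the flower level exceeded that of root and that of stem, which held for 19.4% of the 86757 contigs of the assembly with a mean of at least 1 FPKM over the tissues. All 9 passed that filter, the lowest being the shared contig with a mean of 1.16 FPKM. Flower was the highest of the 4 tissues for 7 of 9, where the share of all contigs was 8.37%, and leaf was the highest for the other two, HSP20_PEQU_07627 and HSP20_PEQU_23675, where it was 38.4%. Root was the lowest tissue for 6 of 9, against 18.5%, and tied with stem at 0 for HSP20_PEQU_23675. With steps divided out, flower was the highest for 8 of 9 where 15.7% of all contigs were, leaf for 1 of 9 where 8.45% were, and root was the lowest for 3 of 9 where 10.5% were. With equal sums 19.8% of all contigs were highest in flower and 4.22% in leaf. Under every scaling these shares are over the same 86757 contigs, filtered on the deposited mean and not on the rescaled one. With steps divided out the shared contig had a mean of 0.918 FPKM on the scale of root and would not pass. The count above root and stem stayed at 9 of 9 under each of the scalings tried, which were the deposited values, steps divided out, median-of-ratios factors, and equal sums with or without the dominant leaf component c157498. The share of all contigs was 17.3% with steps divided out, 19.2% with median-of-ratios factors and 20.7% with equal sums. It was not computed without c157498. These scalings move leaf most, and flower little against root or stem. Among contigs detected in the other tissue, flower was at least 2.65 times root and 2.03 times stem, so the count could hardly change.

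Differences were then read on the FPKM + 1 scale, which understates those of low contigs. Flower was at least 4-fold above root for 6 of 9 contigs, set beside 5.54% of all contigs. It was at least 4-fold above stem for 4 of 9, beside 2.32%, and at least 4-fold above leaf for 3 of 9, beside 2.88%. The last count was 6 of 9 with steps divided out, beside 7.04%. HSP20_PEQU_23675, listed at 0 for root and stem, is among the 6 above root and the 4 above stem. Without it and HSP20_PEQU_07627 these were 5 of 7 and 3 of 7, beside the same shares of 5.54% and 2.32%, a count chosen after the data were seen. Flower minus root had a median of 2.70 log2 units over the 9 contigs and -1.07 over all contigs, and each of the 9 lay above 1.05. Abundance moves these shares. Among the 13613 contigs with a mean of at least 10 FPKM, 15.0% were highest in flower and 15.1% were at least 4-fold above root there. Lowest in root were 40.8% of them, far above the 18.5% given earlier. Of the 6 contigs described here with such a mean, 5 were highest in flower and 5 were at least 4-fold above root there. The 6, and the 5 above root, include HSP20_PEQU_23675, which reached this mean through its leaf level of 39.6 FPKM. Its mean was 11.5 FPKM as deposited and 3.93 with steps divided out. Only 3 of these 6 were lowest in root, near the share of all contigs at that level.

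**Figure D1:**
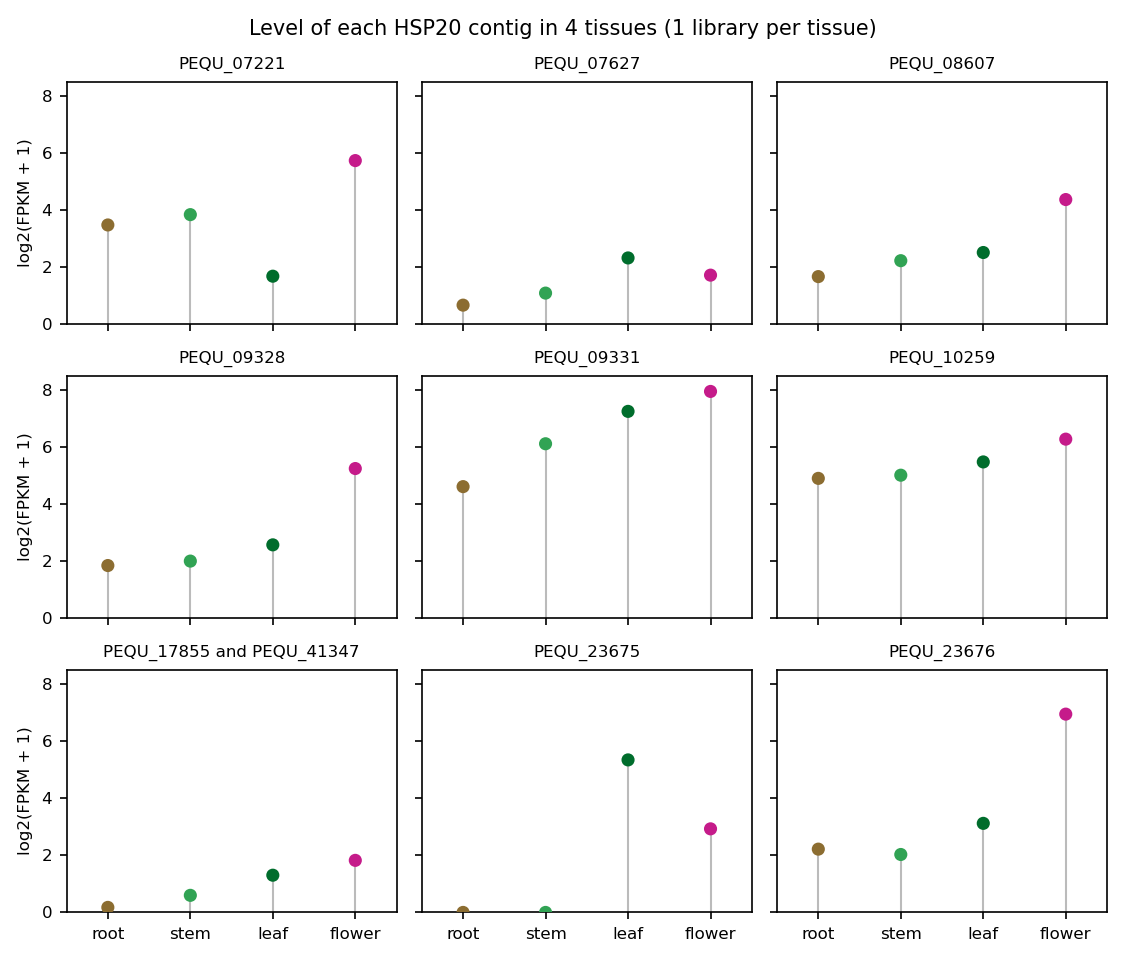
Each panel shows 1 contig, with the tissue on the x axis and log2(FPKM + 1) on the y axis; each point is the single library of that tissue and the thin line runs down to 0. Flower is the highest point in 7 of 9 panels, and PEQU_23675 has its points for root and stem at 0.

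HSP20_PEQU_09331, on contig c143020_g1_i1, was the most abundant of these genes. The root, stem, leaf and flower libraries held 23.5, 68.3, 151 and 246 FPKM. The level was thus 10.5 times that of root in flower. Flower was 1.63 times leaf as deposited and 7.34 times leaf with steps divided out, where leaf lay below stem. Among all contigs it ranked 280th in flower and 5111th in root. Of the summed FPKM of the 9 contigs it made up 32.8% for root, 55.0% for stem, 58.3% for leaf and 43.5% for flower. The sum itself was 71.6 FPKM for root, 124 for stem, 259 for leaf and 565 for flower, and without this gene it was 48.1, 56.0, 108 and 319 FPKM in the same order. Flower held the largest sum with and without it. The place of leaf turned with steps divided out: on the scale of root the sums were then 71.6, 147, 58.8 and 578 FPKM, leaf being the lowest.

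HSP20_PEQU_10259, on contig c142554_g3_i1, was the next most abundant, and as deposited it had the narrowest range. Its levels were 28.9 FPKM in root, 31.3 for stem, 43.5 for leaf and 76.5 for flower. Flower was 2.65 times root, the smallest ratio among the contigs detected in root, and the range over the tissues was 1.37 log2 units. It was the highest of the 9 in root, where it made up 40.3% of their sum, and it made up 13.5% in flower. With steps divided out its lowest tissue was leaf in place of root and its range was 2.86 log2 units. That was wider than the 1.07 of HSP20_PEQU_07627 and the 1.67 of the contig of HSP20_PEQU_17855. Both of those contigs are low, and the FPKM + 1 scale understates their ranges.

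HSP20_PEQU_23676, on contig c3549_g1_i1, leaned most towards flower. The deposited levels were 3.65 FPKM for root, 3.08 for stem, 7.69 for leaf and 122 for flower. Flower held 89.5% of its FPKM summed over the 4 tissues, a level 33.5 times that of root, 39.7 times that of stem and 15.9 times that of leaf. The leaf level is shared by 54 other contigs and may rest on few reads. With steps divided out flower was 71.7 times leaf. The 3 vegetative tissues lay close together, and their order depended on scaling: with steps divided out root and stem were equal and leaf was the lowest. The gene ranked 42575th of all contigs in root and 760th in flower.

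HSP20_PEQU_09328 and HSP20_PEQU_08607 had the same form at lower levels. HSP20_PEQU_09328, on contig c134504_g1_i1, was listed at 2.60, 3.01, 4.95 and 36.9 FPKM for root, stem, leaf and flower, with 77.8% of the sum in flower. HSP20_PEQU_08607, on contig c124876_g1_i1, was listed at 2.17, 3.67, 4.69 and 19.6 FPKM in that order, with 65.0% in flower. Flower stood apart and the other tissues were within a factor of 2.16 of each other in both genes as deposited. The leaf levels are shared by 134 other contigs for HSP20_PEQU_09328 and 129 for HSP20_PEQU_08607, and may rest on few reads. With steps divided out leaf was the lowest tissue of both, and the vegetative tissues spanned a factor of 4.08 for HSP20_PEQU_08607 and 3.17 for HSP20_PEQU_09328. By the distance between log2(FPKM + 1) profiles centred on their own mean, each was near the other, at 0.81 log2 units, the 3rd smallest of the 36 distances among the 9 contigs.

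HSP20_PEQU_07221, on contig c138361_g1_i1, was the only one of the 9 that was lowest in leaf as deposited. Its levels were 10.1 FPKM for root, 13.3 for stem, 2.20 for leaf and 52.1 for flower. Flower was 5.15 times root and 23.6 times leaf. The leaf level of 2.20 FPKM is shared by 264 other contigs. If it were a single read, the read values above would put the flower level at 706 reads and that of root at 76.3. Leaf remained the lowest tissue of this gene under the scalings tried, which lower leaf further.

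**Figure D2:**
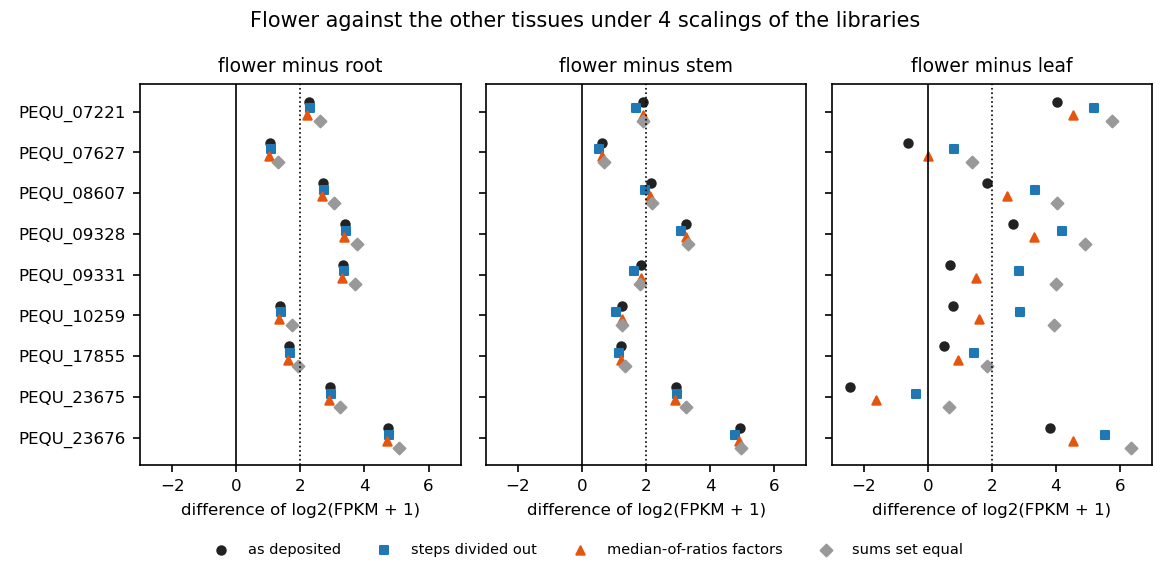
For each contig on the y axis, the x axis gives flower minus root, stem or leaf as a difference of log2(FPKM + 1), with 1 marker per scaling; the solid line marks no difference and the dotted line 4-fold. Differences from root and stem lie to the right of 0 for all 9 contigs, while those from leaf shift with the scaling and cross 0 for PEQU_07627 and PEQU_23675.

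The remaining contigs were low or uncertain. The contig shared by HSP20_PEQU_17855 and HSP20_PEQU_41347 had 0.13 FPKM for root, 0.514 for stem, 1.47 for leaf and 2.54 for flower. Flower was 19.5 times root on FPKM itself, a far larger ratio than the 3.13 on the FPKM + 1 scale, but all 4 levels are small. The alignment bit score of the contig was 898 for HSP20_PEQU_17855 and 682 for HSP20_PEQU_41347, and the level cannot be divided between both models. The other contig of the same Trinity gene, c135117_g1_i1, which is not in the heat shock table, had the same order of tissues at 0.08, 0.342, 0.67 and 1.37 FPKM. Contigs of 1 Trinity gene are those the assembler regards as isoforms.

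HSP20_PEQU_07627, on contig c134777_g1_i2, was low in every tissue and highest in leaf. It had 0.586 FPKM for root, 1.13 for stem, 3.99 for leaf and 2.29 for flower. Leaf was 1.75 times flower as deposited, but with steps divided out flower was the highest, likewise with equal sums, and by 0.01 log2 units with median-of-ratios factors. The Trinity gene has 3 contigs: c134777_g1_i3 stood at 5.94 FPKM in leaf and 1.75 in flower, and c134777_g1_i1 at 2.20 and 1.32. All 3 were thus highest in leaf as deposited.

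HSP20_PEQU_23675, on contig c1605_g1_i1, was listed at 0 for root and for stem, at 39.6 FPKM for leaf and at 6.61 for flower. Leaf was 5.99 times flower in FPKM. In reads the order was the other way: by the read values above, the flower level stood for 4.99 reads for each leaf read. With steps divided out flower was 0.753 times leaf, and with equal sums flower was the higher. If the leaf level were a single read, 1 read would be worth 2.38 FPKM in root, so the listed zeros would not set levels of that order apart from none. The match of gene model to contig was the weakest of these genes, with a bit score of 126 and an e-value of 4e-28, where the bit scores of the other contigs ran from 472 to 992.

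Across tissues, 5 of the 9 contigs shared the order flower, leaf, stem, root from high to low: HSP20_PEQU_08607, HSP20_PEQU_09328, HSP20_PEQU_09331, HSP20_PEQU_10259 and the contig of HSP20_PEQU_17855. The share of all contigs with that order was 3.12%. Leaf was above both root and stem for 8 of 9, against 42.3% of all contigs, and at least 4-fold above root for 2 of 9, HSP20_PEQU_09331 and HSP20_PEQU_23675, against 13.5%. The place of leaf rested on the scaling. With steps divided out 0 of 9 contigs had the shared order, against 1.25% of all contigs. Then 1 was higher in leaf than in root and stem, against 10.1%, and 5 were lowest in leaf, against 40.8%. Stem was above root for 7 of 9 as deposited, against 37.9% of all contigs, and for 7 of 9 with steps divided out, against 43.9%, with a median difference of 0.36 log2 units as deposited.

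HSP20_PEQU_09328 and HSP20_PEQU_09331, whose identifiers are near-consecutive, had the same order of tissues as deposited but unlike levels. With steps divided out, and with median-of-ratios factors, their orders differed, although flower was the highest of both. Whether they are neighbours in the genome was not analysed here, since the reference table used here holds none of the PEQU identifiers. The level of HSP20_PEQU_09331 over that of HSP20_PEQU_09328 was 9.02 for root, 22.7 for stem, 30.5 for leaf and 6.65 for flower. The gap was thus widest in leaf and stem and narrowest in flower. In flower HSP20_PEQU_09328 stood at 7.46 times its leaf level as deposited and 33.7 times with steps divided out. Its leaf level of 4.95 FPKM is shared by 134 other contigs and may rest on few reads. This limits both the leaf ratio above and the difference in leaf below. A ratio of both genes within a library does not depend on how the libraries are scaled. After centring each profile, the largest difference between them was 1.11 log2 units, in leaf, and their distance of 1.71 ranked 13th of 36 among all pairs of the 9 contigs.

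HSP20_PEQU_23675 and HSP20_PEQU_23676, whose identifiers are consecutive, differed in their highest tissue. HSP20_PEQU_23676 was 18.5 times HSP20_PEQU_23675 in flower, whereas HSP20_PEQU_23675 was 5.14 times HSP20_PEQU_23676 in leaf. Root and stem held HSP20_PEQU_23676 at a low level and HSP20_PEQU_23675 at 0. Their profiles differed by 3.73 log2 units in leaf, and their distance of 4.58 ranked 35th of 36, so only the pair HSP20_PEQU_07221 and HSP20_PEQU_23675 lay further apart. The weak match and the few reads that may lie behind HSP20_PEQU_23675 bear on each of these values.

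**Figure D3:**
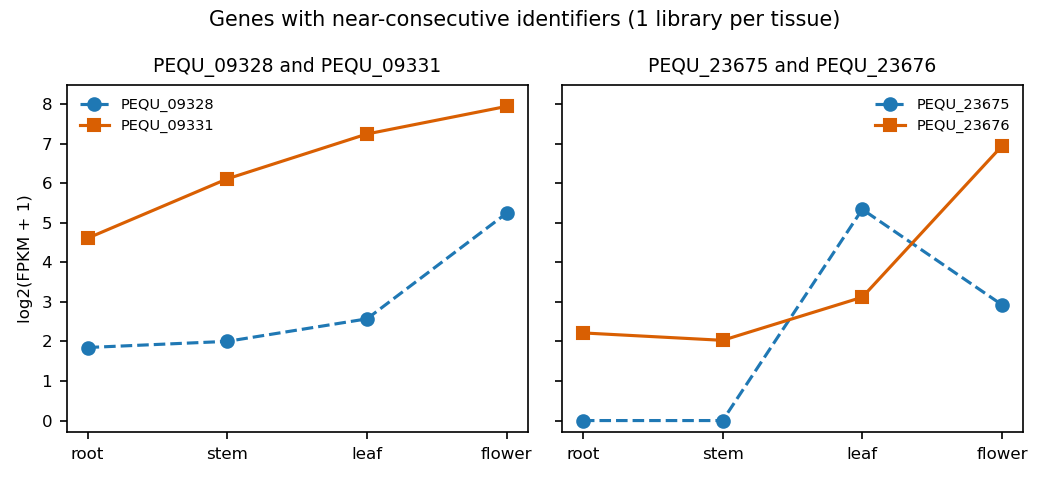
The tissue is on the x axis and log2(FPKM + 1) on the y axis, with 1 point per library; lines only join the points of 1 gene. PEQU_09331 lies above PEQU_09328 in all 4 tissues. The lines of PEQU_23675 and PEQU_23676 cross between stem and leaf and again between leaf and flower.

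The assembly components of 2 genes also hold contigs of other Trinity genes, which the assembler does not regard as isoforms of the contigs described. Beside the contig of HSP20_PEQU_10259, component c142554 holds c142554_g2_i1, with 16.9, 15.6, 12.7 and 52.2 FPKM for root, stem, leaf and flower, and c142554_g1_i1, with 7.09, 5.23, 12.6 and 13.3. Neither is in the heat shock table, and both were highest in flower. Flower over leaf was 1.76 for the contig of HSP20_PEQU_10259, 4.10 for c142554_g2_i1 and 1.05 for c142554_g1_i1. The 3 contigs of this component thus differed more against leaf than against root, where the ratios were 2.65, 3.10 and 1.87. Beside HSP20_PEQU_09331, c143020_g2_i1 reached at most 1.46 FPKM, in stem.

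Set beside the rest of the heat shock table, these genes lay between the 4 HSP20 genes left out and the larger chaperones in the median differences of flower from root and from leaf. Flower minus root had a median of 2.70 log2 units for the 9 contigs, 4.72 for the 4 other HSP20 contigs, 1.04 for the 8 HSP70 contigs and 0.16 for the 6 HSP90 contigs. Single contigs of the lists overlapped: HSP20_PEQU_14374 was at 1.15, HSP70_PEQU_02517 at 2.55 and HSP90_PEQU_31881 at 2.58. Against leaf the medians were 0.80, 1.67, -0.03 and -0.37, and these move with the scaling of leaf. Flower was above both root and stem for 9 of 9, 4 of 4, 7 of 8 and 3 of 6 contigs. The levels differed too: the median in flower was 36.9 FPKM for the 9, 80.9 for the 4, 117 for HSP70 and 102 for HSP90, and in root it was 2.60, 2.34, 52.9 and 90.4 FPKM. No test of a difference between these lists was possible with 1 library per tissue.

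**Figure D4:**
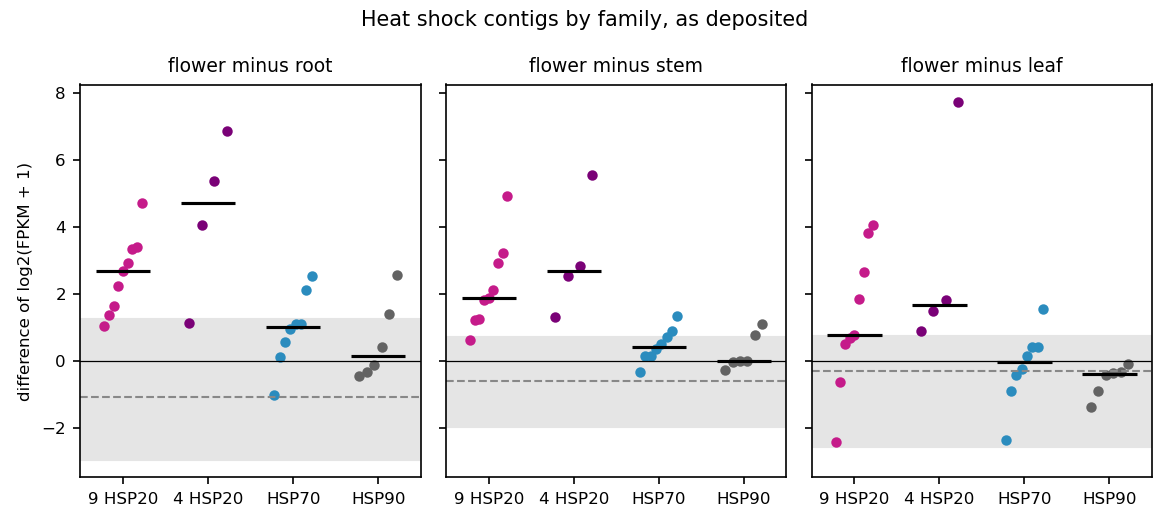
Each point is 1 contig, grouped on the x axis into the 9 HSP20 contigs described, the other 4 HSP20 contigs, HSP70 and HSP90; the y axis is flower minus root, stem or leaf in log2(FPKM + 1), black bars are medians, and the grey band and dashed line are the 10th to 90th percentile and the median of all 86757 contigs. Against root 8 of the 9 points and the median, at 2.70, lie above the band, which ends at 1.28.

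The contigs of the table whose profiles were most alike were found by the same distance over the 4 tissues, among 26 other heat shock contigs. HSP20_PEQU_10259 was nearest to HSP20_PEQU_14374, at 0.25 log2 units, and HSP20_PEQU_09331 to HSP20_PEQU_14371, at 0.65. HSP20_PEQU_08607 was nearest to HSP70_PEQU_02517, at 0.60, and HSP20_PEQU_07627 to HSP70_PEQU_03033, at 0.20. HSP20_PEQU_09328 was nearest to HSP20_PEQU_08607, at 0.81, and HSP20_PEQU_23676 to HSP20_PEQU_09328, at 1.26. The contig of HSP20_PEQU_17855 was nearest to HSP20_PEQU_10259, at 0.39, and HSP20_PEQU_07221 to HSP20_PEQU_08607, at 2.12. The FPKM + 1 scale flattens low contigs, so a small distance from one need not mean like ratios. Flower over root on FPKM itself was 19.5 for the contig of HSP20_PEQU_17855 and 2.65 for HSP20_PEQU_10259. The same limit applies to HSP20_PEQU_07627, which reached at most 3.99 FPKM. HSP20_PEQU_23675 lay furthest from all, with HSP90_PEQU_31881 nearest at 2.74. In the whole assembly, of 2092 other contigs with at least 50% of the mean of HSP20_PEQU_09331, the nearest was c127223_g1_i1, at 0.15, with 51.2, 139, 312 and 455 FPKM for root, stem, leaf and flower. The next were c7181_g1_i1 at 0.24 and c195346_g1_i1 at 0.30. These 3 contigs have no gene name in the tables used here, and 4 tissues are few points for a likeness.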

How the data were processed

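Contigs of 200 nucleotides or more were made by the authors with Trinity, version r2013-02-25, and annotated by BLASTx, per the series' design text. Of read mapping and of the match of gene models to contigs, no source used here gives the program, nor that for FPKM. edgeR and DESeq appear in the submitters' processing notes, without role. The deposited values are FPKM, per the file headers. The alignment bit score and e-value of each match were deposited by the authors. All 28 rows of the heat shock table with a contig held the FPKM of that contig in the table of all contigs. The R gene table was not used.

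With Python 3.11.15, numpy 2.4.6 and pandas 2.3.3, levels were compared on log2(FPKM + 1) by rules of size (4-fold; mean FPKM of at least 1 for the background), with no test, since each tissue has 1 library. Libraries were also rescaled by median-of-ratios factors over the 24591 contigs above 1 FPKM in all tissues, by equal sums, and by their steps. The worth of 1 read came from 6489 contigs of single-contig Trinity genes whose stem to root ratio lay within 0.02 log2 units of that of 2 to 3, 3 to 4 or 3 to 5 reads, or the reverse. Of these, only contigs above 0 in leaf or flower and near the most frequent value there gave the figure of that library. That value was taken as 1 read. The estimate of read worth and the search for steps were tested on simulated data. All 10 gene models were named. For each contig the nearest heat shock contig was named, and for the most abundant one the 3 nearest of all contigs. The rule for the members reads no expression value, but it, the lists and the rules of size were chosen with earlier results of these data known. Total reads per library are not used here. No sequence is printed, since the reference table used here has none.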

Additional observations from a re-analysis of the deposited data

How the results depend on the processing

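Flower exceeded root and stem for 9 of 9 contigs under all 5 scalings, beside 17.3% to 20.7% of all contigs where computed. The scalings move flower little against root or stem, so this count could hardly change. Relative to root, median-of-ratios factors lower leaf by 0.87 log2 units and equal sums lower it 8.02-fold. The contigs at least 4-fold above leaf in flower were 3 as deposited, beside 2.88% of all contigs. They were 6 with equal sums, beside 16.6%, and 6 with steps divided out, beside 7.04%. With equal sums without c157498 they were 6 too, and the share of all contigs was not computed there. Contigs lowest in root were 6 as deposited, beside 18.5% of all contigs, and 3 with steps divided out, beside 10.5%. With equal sums 1 of 9 was lowest in root, near the 7.53% of all contigs. The median difference between flower and root, 2.70 log2 units, was 2.66 with median-of-ratios factors, 3.05 with equal sums, 3.06 without c157498, 2.73 with steps divided out, 2.48 both with each gene model counted and with bit scores of at least 200, 3.38 with a pseudocount of 0.1 and 1.78 with one of 5. With a pseudocount of 5, contigs at least 4-fold higher in flower were 3 against root and 2 against stem, and at 2-fold 8 were higher than stem. The shares of all contigs were not computed at that pseudocount or at 2-fold, so these counts have no background beside them. The largest difference between the profiles of HSP20_PEQU_09328 and HSP20_PEQU_09331 was 1.10 and 1.06 log2 units with pseudocounts of 0.1 and 5, and that of HSP20_PEQU_23675 and HSP20_PEQU_23676 was 5.36 and, now in flower, 2.67. The median of all contigs turned from -1.07 to 0.16 over those with a mean of at least 10 FPKM. For these changes the cause was not tested. The scaling by steps, the sums without c157498 and a count without HSP20_PEQU_23675 and HSP20_PEQU_07627 were chosen after seeing the data. No paired analysis was possible because each tissue has 1 library and the labels carry no replicate numbers. By the estimate above, a leaf read is worth 16.6 times a root read in deposited FPKM and 3.77 times with steps divided out. On that estimate low leaf values rest on few reads.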

Other observations

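The steps of the 4 libraries were related to each other. In units of 0.01 FPKM they were 0.724 for root, 0.612 for stem, 3.19 for leaf and 0.708 for flower, and their product was 1. Within 0.0006 FPKM of a whole multiple lay 100% of the values above 0 in each library, where evenly spread values would give 3.76% for leaf and between 16.6% and 19.6% for the rest. Divided by these factors, the summed FPKM was 1237390 in root, 1119390 for stem, 2249060 for leaf and 983268 for flower, against deposited sums of 895717, 684575, 7179830 and 695751. On that scale HSP20_PEQU_09331 stood at 32.4 FPKM for root, 112 for stem, 47.3 for leaf and 347 for flower, so that stem, not leaf, came next to flower. HSP20_PEQU_23676 stood at 5.04 FPKM in both root and stem, 2.41 in leaf and 173 in flower. No source used here states where the steps come from, and this was not tested.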
